A study of Macaca mulatta with 13 samples.

Results

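Blood mononuclear cells of 4 surrogate-peer reared and 4 peer reared rhesus macaques were compared, 8 of the 13 animals of the series; the remaining 5 animals, reared by their mothers, were left out of the comparison. The 2 groups were formed from the rearing condition in the labels. All animals were 4 months old, each gave 1 Affymetrix rhesus array, and the labels name no further treatment. The comparison covered the brighter part of the array, 26352 of 52707 non-control probe sets, each with an average over all 13 arrays above 6.04 (log2), the median of such averages. The series asks whether gene expression differs by early rearing; this comparison asks it between the 2 groups raised without their mothers. Sex, birth cohort and housing unit of the animals were not used here.

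In peer rearing, infants are kept in a nursery with constant access to other infants of like age. In surrogate-peer rearing, an infant lives with an inanimate surrogate mother and meets other infants for part of the day. Mononuclear cells of the blood are a mixture of T cells, B cells, natural killer (NK) cells, monocytes and dendritic cells. No base sequences are shown because the probe sequences of the array were not used here.

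Markers of B cells, T cells, monocytes and cytotoxic cells were bright in both groups. The antigen CD20 of B cells, encoded by MS4A1, averaged 10.90 ± 0.67 (SD, n = 4) on surrogate-peer arrays, against 11.88 ± 0.42 (SD, n = 4) on peer arrays, as log2 values. TCF7, a transcription factor of T cells, averaged 13.01 and 13.04 in the same order, the monocyte receptor gene CD14 11.08 and 11.04, and GZMB, a granzyme of cytotoxic cells, 11.19 and 11.31. The platelet chemokine gene PF4 (13.23 and 13.35) and the granule peptide gene CAMP of neutrophils (12.24 and 11.89) were also bright in both groups. TCF7, CD14 and GZMB were singled out after their values were seen; another probe set of TCF7 gave a log2 fold change of 0.10, against -0.03.

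No probe set separated the 2 groups at an adjusted p under 0.05. The limma count was 0 of 26352 (0.0%), and the smallest adjusted p was 0.9996. At an unadjusted limma p under 0.05 there were 761 probe sets (2.89%), where chance gives 1318. Of these, 268 (1.02%) were higher and 493 (1.87%) lower in the surrogate-peer animals. This count and its split moved with single arrays: without surrogate-peer array 2 there were 1043, of which 55.9% were higher, without surrogate-peer array 3 there were 1327, and without peer array 3 there were 1161. All tests used the spread between animals within the groups, with 4 arrays in each.

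The typical difference was small against this spread. The median log2 fold change, surrogate-peer minus peer, was 7e-04, and the 5th and the 95th percentile were -0.23 and 0.23. The median half-width of the 95% confidence interval of a log2 fold change was 0.26. For 25224 probe sets, 95.7% of those tested, the whole interval lay within a 2-fold difference in either direction. For the other 4.28% a difference of 2-fold or more was inside the interval.

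All 4 surrogate-peer values lay beyond all 4 peer values for 459 probe sets (1.74%), 229 above (0.869%) and 230 below (0.873%). They covered 264 named genes. A log2 fold change of at least 1 in size was found at 67 probe sets (0.254%), of which 12 also had groups that did not overlap. The genes described next belong to these sets or to lists of genes of blood cells, and none passed the adjusted threshold; their adjusted p was 0.9996 in limma throughout.

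**Figure D1:**
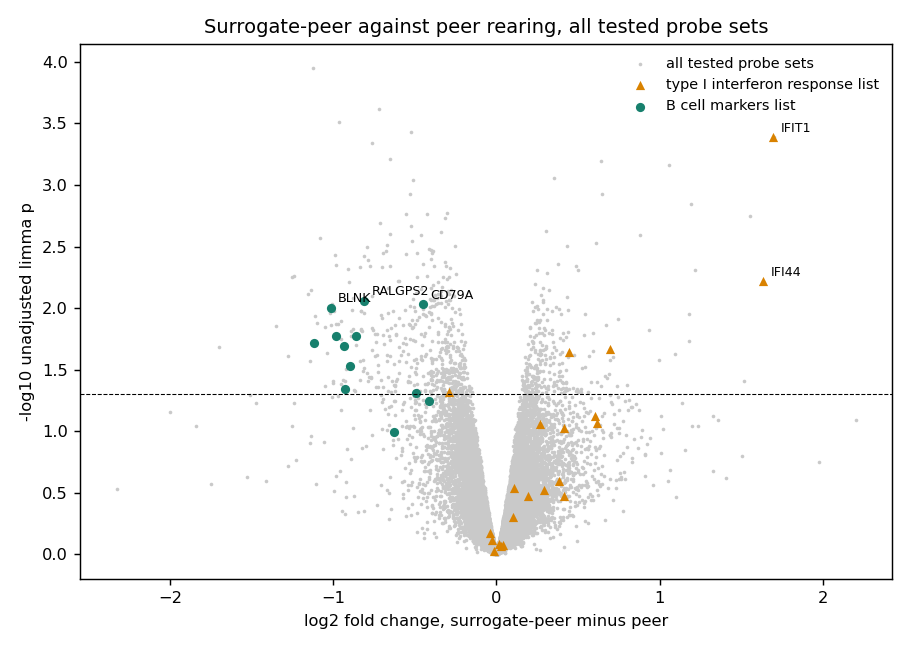
Log2 fold change, surrogate-peer minus peer, on the x axis against -log10 of the unadjusted limma p on the y axis, for 26352 tested probe sets (grey), with 12 B cell markers (green circles) and 21 type I interferon response genes (orange triangles). All 12 B cell markers lie left of 0, 10 of them above the dashed line that marks the unadjusted threshold of 0.05, while IFIT1 and IFI44 lie far to the right.

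B cell markers had the most negative median of the 27 gene lists examined. B cells recognise antigen through the B cell receptor, whose signal passes through the chains encoded by CD79A and CD79B and the adaptor BLNK, and their identity is kept by transcription factors such as EBF1. All 12 measured members of a list of 22 B cell markers had negative log2 fold changes, from -1.12 to -0.41, with a median of -0.88, against a median of 7e-04 over all tested probe sets. At an unadjusted limma p under 0.05, 10 of the 12 were lower, where 1.87% of all probe sets were, and 2 of 12 had groups that did not overlap, where 0.873% did. In a mixture of cells, fewer B cells and less RNA per B cell cannot be told apart. The 12 genes were read from the same 8 arrays and are not 12 separate observations.

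Among transcription factors and receptor signalling genes, EBF1 was at 7.52, 7.38, 8.75 and 8.83 on surrogate-peer arrays 1 to 4 and at 9.18, 9.92, 8.66 and 9.19 on peer arrays 1 to 4. Its log2 fold change was -1.12 ± 0.39 (SE), with a 95% interval from -2.01 to -0.23. The low values came from surrogate-peer arrays 1 and 2, and the groups overlapped at peer array 3. BLNK was at 8.24, 8.20, 9.33 and 9.13 in surrogate-peer and 9.64, 10.07, 9.17 and 10.09 in peer animals, a log2 fold change of -1.01 ± 0.31 (SE). CD79B had a log2 fold change of -0.93, with values from 8.89 to 10.25 in surrogate-peer and from 9.96 to 10.97 in peer animals, but its other probe set gave -0.04. For CD79A all 4 surrogate-peer values, 6.59 to 6.96, lay below all 4 peer values, 7.02 to 7.53, and the log2 fold change was -0.45 ± 0.13 (SE).

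Among surface molecules of B cells, MS4A1 was at 10.27, 10.39, 11.57 and 11.38 in surrogate-peer animals and between 11.32 and 12.32 in peer animals (log2 fold change -0.98 ± 0.33, SE), and its 3 other probe sets gave -1.15 to -0.62. The inhibitory receptor gene CD22 gave -0.90, and the Fc receptor-like genes FCRL1, FCRL2 and FCRLA gave -0.93, -0.63 and -0.49. FCRL1 was at 7.67 and 7.76 on surrogate-peer arrays 1 and 2 and at 9.35 and 9.13 on arrays 3 and 4, which lay within the peer range of 9.12 to 9.89, and the other probe sets of FCRL1 gave -0.67 and -0.10. For MS4A1, as for FCRL1, arrays 1 and 2 of the surrogate-peer group were the low ones.

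The scaffold gene BANK1 and the exchange factor gene RALGPS2, both of B cells, had log2 fold changes of -0.86 and -0.81, and RALGPS2 had groups that did not overlap (7.09 to 8.12 against 8.32 to 9.05) at this probe set. The other probe sets of RALGPS2 gave -0.78 and -0.15, so they disagree in size. The kinase gene BLK gave -0.41. Values of FCRL1, CD22, CD79B, FCRLA, FCRL2 and BLK beyond those the naming rule chose are given to show the whole list.

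The lowest B cell values came from 2 animals. The list score, in which each of the 12 genes is first centred on its own average across these 8 arrays and the centred values are then averaged, was -0.74, -0.86, 0.11 and -0.09 on surrogate-peer arrays 1 to 4. It was 0.31, 0.80, -0.003 and 0.48 on peer arrays 1 to 4, so the groups overlapped. Surrogate-peer array 2 was the lowest of the 8 arrays for 8 of the 12 genes and array 1 for the other 4, while peer array 2 was the highest for 9. Without surrogate-peer arrays 1 and 2, an alternative chosen after seeing the data, the list median was -0.43, and all leave-one-out medians lay between -1.07 and -0.67. On the 5 maternal arrays the score ran from 0.21 to 1.13, which reached above the highest peer score. Surrogate-peer arrays 1 to 4 and peer array 3 were all below the lowest maternal score.

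**Figure D2:**
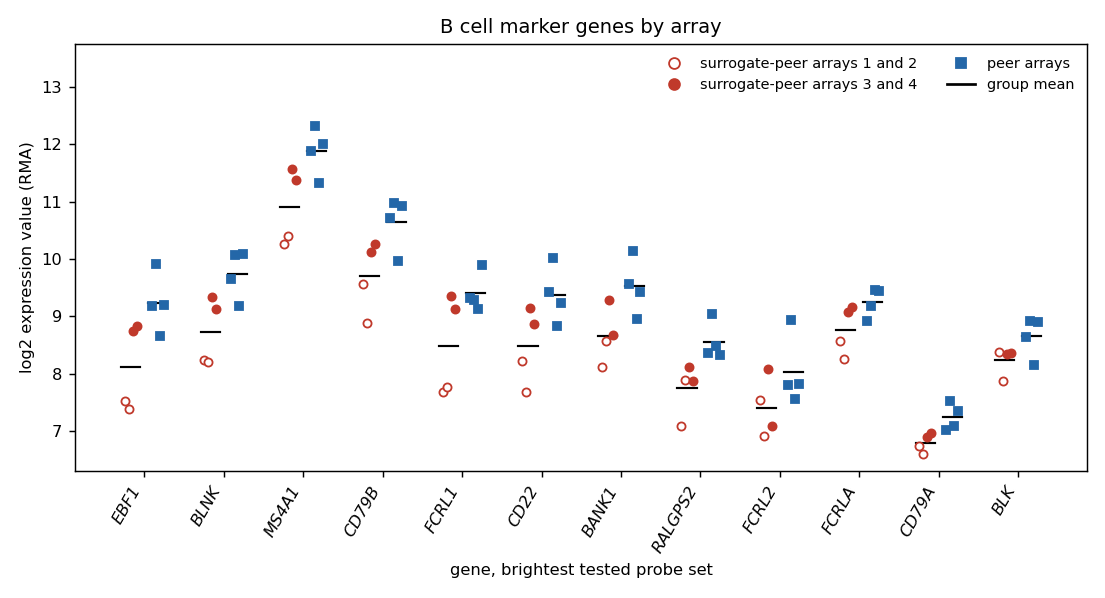
Log2 expression values (y axis) of 12 B cell marker genes (x axis) on each of the 8 arrays: surrogate-peer arrays as circles, with arrays 1 and 2 open, peer arrays as squares, and group means as black bars. The open circles are the 2 lowest values for most genes, for MS4A1 10.27 and 10.39, while the filled circles lie close to or within the peer range.

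Surrogate-peer array 2 had the lowest mean correlation with the other 7 arrays, 0.962, where the others had 0.973 to 0.977, and the highest monocyte marker score (0.61). Surrogate-peer array 1 had no such distance (0.973) and the highest NK and cytotoxic score (0.63). The part of these differences in the B cell values was not tested. The T cell marker score was 0.18 and -0.24 on these arrays, within or near the range of the other 6, -0.17 to 0.19.

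A second list held genes of B cell transcription and signalling. Of its 15 measured members, of 18 listed, 14 were negative, with a median log2 fold change of -0.21; 3 were lower and 1 higher at an unadjusted limma p under 0.05, where 1.87% and 1.02% of all probe sets were. The lower ones were IRF8, a transcription factor of B cells and dendritic cells (-0.39 ± 0.11, SE), BCL11A, a transcription factor of early B cells (-0.69), and the costimulatory receptor gene CD40 (-0.72). IRF8 was at 9.13, 8.76, 9.03 and 9.09 in surrogate-peer and 9.42, 9.24, 9.33 and 9.58 in peer animals, without overlap. The adaptor gene DAPP1 was the exception, with 0.26. IRF8 is also in the list of dendritic cell markers, which had a median of -0.0075, with 7 of 11 members negative. In that list 2 were lower at an unadjusted limma p under 0.05, IRF8 and the transcription factor gene TCF4 (-0.73 ± 0.25, SE), where 1.87% of all probe sets were. TCF4 was at 7.04 and 7.15 on surrogate-peer arrays 1 and 2 and at 7.73 to 8.555 on the remaining arrays.

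Genes of MHC class II presentation, which B cells share with monocytes and dendritic cells, had a median of -0.17 over 8 measured members, 7 of them negative and 0 at an unadjusted p under 0.05. CIITA, the regulator of class II genes, gave -0.20 and the invariant chain gene CD74 -0.33. In plasma cell markers, 8 of 10 members were negative with a median of -0.12, and MZB1, a chaperone of antibody secreting cells, gave -0.47. The intervals of the 8 class II genes and of the 10 plasma cell genes all lay within a 2-fold difference.

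The naming rule also chose single genes with lower values in surrogate-peer than in peer animals. MEF2C, a transcription factor with a role in B cells and muscle, was at 5.45, 5.73, 6.42 and 6.26 in surrogate-peer and 7.25, 7.05, 6.50 and 6.70 in peer animals. All 3 probe sets of MEF2C lay between -0.91 and -0.76. PNOC, which encodes the precursor of the neuropeptide nociceptin, had a log2 fold change of -0.71 ± 0.16 (SE), with values of 7.64 to 8.36 against 8.37 to 8.79. BCL7A, a subunit of SWI/SNF chromatin remodelling complexes, gave -0.55 and ELL3, an elongation factor of RNA polymerase II, -0.68.

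The smallest p of the whole comparison belonged to PDZRN3, a ubiquitin ligase gene. It was at 7.29, 7.69, 7.73 and 7.30 in surrogate-peer and 8.96, 8.34, 8.41 and 8.77 in peer animals, a log2 fold change of -1.12 ± 0.17 (SE) and an unadjusted limma p of 1.13e-04. On maternal arrays PDZRN3 averaged 7.42 ± 0.86 (SD, n = 5), and those arrays had no part in the test. POLR1C, a shared subunit of RNA polymerases I and III, was at 8.74, 8.32, 8.55 and 8.45 against 9.66, 9.66, 9.62 and 8.98 (-0.96 ± 0.17, SE), and its other probe set gave -0.76. The groups did not overlap for either gene, and neither passed the adjusted threshold.

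The other lower genes of the naming rule ran from -0.83 for ACKR1, the atypical chemokine receptor of the Duffy blood group, to -0.43 for KCNMB4, a potassium channel subunit. They were KLHL24 (-0.81), PTP4A3, a tyrosine phosphatase (-0.79), RUFY3 (-0.71), HS3ST1, a heparan sulfate sulfotransferase (-0.69), GFAP (-0.67), ADARB1, an RNA editing enzyme (-0.65), PKIG, an inhibitor of protein kinase A (-0.65), RTN4IP1 (-0.52), SECISBP2L (-0.51), TSPAN3 (-0.51) and CAB39L (-0.46). Of the 19 genes named here as lower by single values, surrogate-peer array 2 was the lowest array for 9 and array 1 for 6. The surrogate-peer mean lay within the range of the maternal arrays for 12 of the 19, and the peer mean also for 12. On maternal arrays POLR1C averaged 8.08, below both groups, and PKIG 7.84, above both. For ACKR1, GFAP, KCNMB4, KLHL24, RUFY3 and TSPAN3 at least 1 other probe set differed by more than 0.5, with values of -0.04, 0.02, 0.08, 0.06, -0.14 and 0.12.

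The interferon-induced genes IFIT1 and IFI44 had the most positive log2 fold changes of the genes named here. Type I interferons are signals released during viral infection that switch on antiviral effectors such as the IFIT, MX and OAS families. Of 21 measured members of a list of 33, 17 had positive log2 fold changes, with a median of 0.27 and a range from -0.29 to 1.70. At an unadjusted limma p under 0.05, 4 were higher and 1 lower, where 1.02% and 1.87% of all probe sets were. For 2 the surrogate-peer values lay wholly above and for 1 wholly below the peer values, where 0.869% and 0.873% of all probe sets were.

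IFIT1, which binds viral RNA, was at 8.38, 8.21, 9.29 and 9.40 in surrogate-peer and 7.52, 6.75, 7.38 and 6.84 in peer animals. Its log2 fold change of 1.70 ± 0.31 (SE) was larger than the difference between any 2 animals within either group. IFI44 was at 8.47, 8.88, 9.31 and 10.09 against 7.57, 7.003, 8.05 and 7.90 at 1 probe set (1.56 ± 0.35, SE), and the other gave 1.64. IFIT1B, a relative of IFIT1, was at 8.58, 8.36, 8.24 and 8.73 against 7.90, 7.63, 7.19 and 6.96 (1.06 ± 0.21, SE). The groups did not overlap for these 3 genes, and peer array 2 or 4 was the lowest in each.

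The antiviral GTPase gene MX1 gave 0.70 ± 0.25 (SE), with 8.94 to 9.66 against 8.02 to 9.18, and the ubiquitin-like modifier gene ISG15 gave 0.45 ± 0.16 (SE), with 8.07 to 8.78 against 7.71 to 8.17. The groups overlapped for both genes. IFIT2 and IFIT3, singled out after their values were seen, gave 0.62 and 0.60 with intervals that included 0, and the 5 other probe sets of IFIT2 gave -0.30 to 0.50. The ubiquitin ligase gene HERC6, a member of the same list, gave -0.29, with all 4 surrogate-peer values (8.90 to 9.50) below all peer values (9.53 to 9.62). OAS1 (0.04), OAS2 (0.11) and the RNA sensor gene IFIH1 (0.03) lay near 0, so members of the list differed in size and sign; these 3 were also singled out after their values were seen.

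The interferon score was 0.10, 0.05, 0.19 and 0.38 on surrogate-peer arrays 1 to 4 and -0.21, -0.33, 0.18 and -0.36 on peer arrays 1 to 4. Peer array 3 lay among the surrogate-peer arrays, and the groups overlapped. Peer arrays 2 and 4 were the lowest of the 8 for 10 and 7 of the 21 genes. Leaving out single arrays gave list medians of 0.15 to 0.38, the lowest without peer array 4. The maternal scores ran from -0.12 to 1.62, wider than either group, and IFIT1 had a mean of 10.08 ± 1.90 (SD, n = 5) there. Of the interferon gamma and class I presentation genes 6 of 14 were positive, with a median of -0.01, and the immunoproteasome subunit gene PSMB8 gave -0.51.

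**Figure D3:**
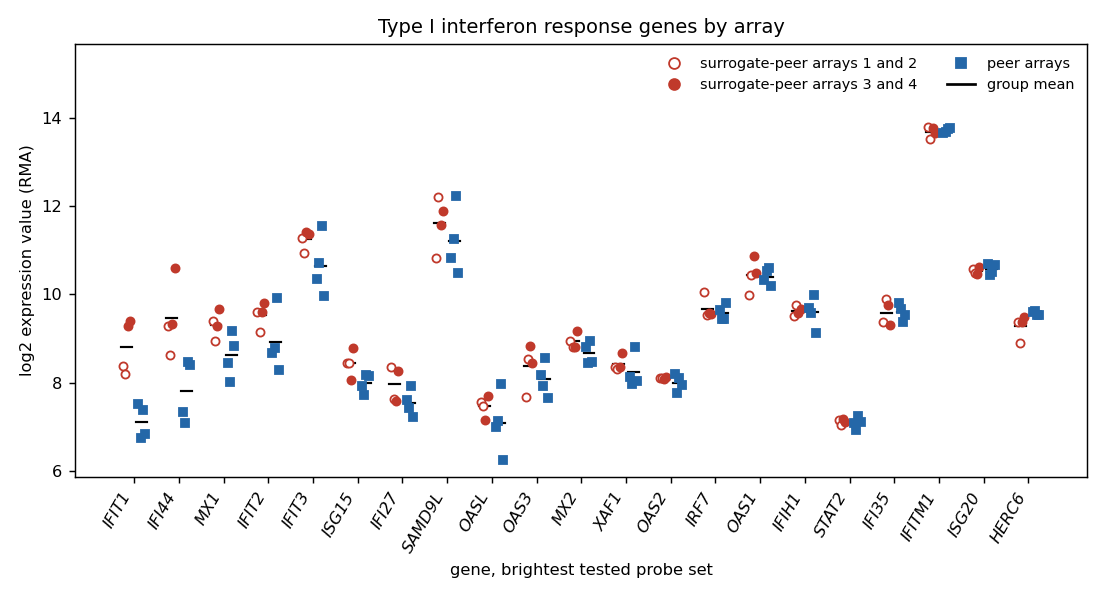
Log2 expression values (y axis) of 21 type I interferon response genes (x axis) on each array, with surrogate-peer arrays as circles (arrays 1 and 2 open), peer arrays as squares and group means as black bars. IFIT1 and IFI44 separate the groups, with peer means of 7.12 and, at the brighter of its probe sets, 7.82 against 8.82 and 9.46, while most other genes overlap.

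The remaining genes named for higher values came from several functions. GIPC2 was at 9.19, 8.29, 7.94 and 8.24 in surrogate-peer and 7.39, 6.80, 7.31 and 7.39 in peer animals (1.19 ± 0.26, SE). The ribosomal protein genes RPL24 (0.88) and RPL13 (1.18 at the probe set named here) were also among them. For RPL13 the other probe sets, which were brighter, gave -0.25 and -0.16, and RPL24 had 1 tested probe set. The ribosomal list as a whole, which does not hold RPL24, had a median of -0.04, with 3 of 17 members positive.

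KIR3DL12, an inhibitory receptor of NK cells, gave 0.65 ± 0.14 (SE), with 6.61 to 7.06 against 6.03 to 6.40; genes of this family are alike in sequence, so a probe set may read several. TSPAN32, a tetraspanin of blood cells, gave 0.61, ROCK2, a kinase acting on the cytoskeleton, 0.59, UBASH3B, a phosphatase, 0.54, CYSLTR2, a leukotriene receptor, 0.50, and ADAMTS10, a metalloprotease, 0.49. Smaller values with little spread were those of CLN3, a lysosomal membrane protein (0.35), PSTPIP1, an adaptor of the cytoskeleton (0.32), and GGCT (0.30). CLN3 was at 8.51 to 8.61 against 8.15 to 8.31. For ROCK2 the other probe sets gave -0.06 and 0.11.

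T cell markers had a median log2 fold change of 0.03 with 6 of 11 members positive, 0 at an unadjusted p under 0.05, and all 11 intervals within a 2-fold difference; CD4 gave 0.09 (interval -0.09 to 0.26) and CD8A -0.10 (-0.58 to 0.39). T cell activation genes had a median of -0.03, and EGR2, a factor induced by the T cell receptor, gave -0.10 with an interval from -1.88 to 1.68. EGR2 was at 5.85 on surrogate-peer array 1 and at 7.29 to 9.38 on the other 7 arrays. EGR2 and CD8A were singled out after their values were seen.

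NK and cytotoxic markers had a median of 0.10 over 19 members, 13 of them positive and 0 at an unadjusted p under 0.05. GZMB gave -0.12 with an interval from -0.86 to 0.62, CST7, a cystatin of cytotoxic granules, 0.44 and NCAM1, the adhesion molecule CD56, -0.15, with 0.009 to -0.26 at its other probe sets. The widest intervals belonged to KLRC1 (-0.93, from -3.71 to 1.85) and GNLY (-0.95, from -3.62 to 1.73), singled out after their values were seen. KLRC1, which encodes the receptor NKG2A, was at 4.08 on surrogate-peer array 3 and at 9.01 to 9.45 on the other 3 of its group. GNLY, encoding granulysin, was at 6.05 on surrogate-peer array 4 and at 10.66 to 12.38 on the other 7 arrays. Other probe sets gave -0.14 for KLRC1 and 0.15 for GNLY.

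Monocyte markers had a median of 0.14, with 13 of 17 positive, and 1, the beta-glucan receptor gene CLEC7A (0.41 ± 0.17, SE), was higher at an unadjusted p under 0.05. Surrogate-peer array 2 was the highest of the 8 arrays for 8 of the 17 members, and without it the median was -0.02. S100A8 and S100A9, subunits of calprotectin singled out after their values were seen, gave 0.57 and 0.69 with intervals from -0.21 to 1.34 and from -0.18 to 1.57. S100A9 was highest on surrogate-peer array 2 (14.50) and peer array 3 (14.07), which also had the 2 highest monocyte scores, 0.61 and 0.32. Among basophil markers CCR3, the eotaxin receptor, was at 10.52 on surrogate-peer array 2 and at 8.23 to 9.29 on the other 7 arrays, and its log2 fold change was 0.75 (-0.19 to 1.69). PTGDR2, a prostaglandin receptor of the same cells, gave 0.61, with 8.64 on surrogate-peer array 2 against 6.81 to 7.55 elsewhere, while the other, dimmer probe set of PTGDR2 gave -0.09. TLR5, the flagellin receptor, gave 0.67 ± 0.27 (SE).

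Genes of stress hormone and sympathetic signalling had medians near 0. Of 16 measured genes of the glucocorticoid receptor and its targets, 12 were positive with a median of 0.03, 0 had an unadjusted p under 0.05, and 14 had intervals within a 2-fold difference. The receptor gene NR3C1 gave -0.14 (-0.43 to 0.15), the chaperone gene FKBP5 -0.04 (-0.39 to 0.31) and TSC22D3, the leucine zipper protein GILZ, 0.09 (-0.15 to 0.33); these 3 were singled out after their values were seen, and another probe set of NR3C1 gave 0.04. DDIT4 and CEBPD, named by the rule, gave 0.47 and 0.24. In adrenergic and cyclic AMP signalling, 9 of 18 were positive with a median of 0.001, and all 18 intervals lay within a 2-fold difference. PDE4A, a phosphodiesterase that degrades cyclic AMP, was at 8.47, 8.52, 8.47 and 8.52 in surrogate-peer and 8.29, 8.20, 8.32 and 8.30 in peer animals, without overlap (0.22 ± 0.07, SE).

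Inflammatory genes gave medians near 0, with wide intervals for part of the cytokines and chemokines. Cytokines and chemokines had a median of 0.03 over 11 members, of which 5 had intervals within a 2-fold difference. IL1B gave -0.07 (-0.92 to 0.78) and CXCL8, a chemokine for neutrophils, 0.56 (-1.51 to 2.64), both singled out after their values were seen. NF-kB and AP-1 factors had a median of -0.04, with 5 of 16 positive and 15 intervals within a 2-fold difference. Of the heat shock genes, HSPH1 (-0.31) and DNAJB1 (-0.26) were lower at an unadjusted p under 0.05, where 1.87% of all probe sets were, in a list of 12 with a median of 0.03. In the oxidative phosphorylation and ribosomal protein lists, read at the brightest probe sets, all 18 and all 17 intervals lay within a 1.5-fold difference. The intervals of RPL24, which is not in that list, and of the dimmer RPL13 probe set named above reached further, 0.40 to 1.36 and 0.34 to 2.02.

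Over all 27 lists, 12 medians were negative and 15 positive, and the scores of the 2 groups overlapped in each list. Of the 347 listed genes that were measured, 27 (7.78%) had an unadjusted limma p under 0.05, against 2.89% of all tested probe sets. B cell markers supplied 10 of them, all read from the same 8 arrays. The lists were chosen with earlier results of these data known, and each listed gene was read at its brightest probe set. The 2 shares were therefore not tested against each other. Median and mean differed in sign for 3 lists, interferon gamma and class I presentation (mean 0.06), heat shock and immediate early genes (mean -0.01) and adrenergic signalling (mean -0.004).

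**Figure D4:**
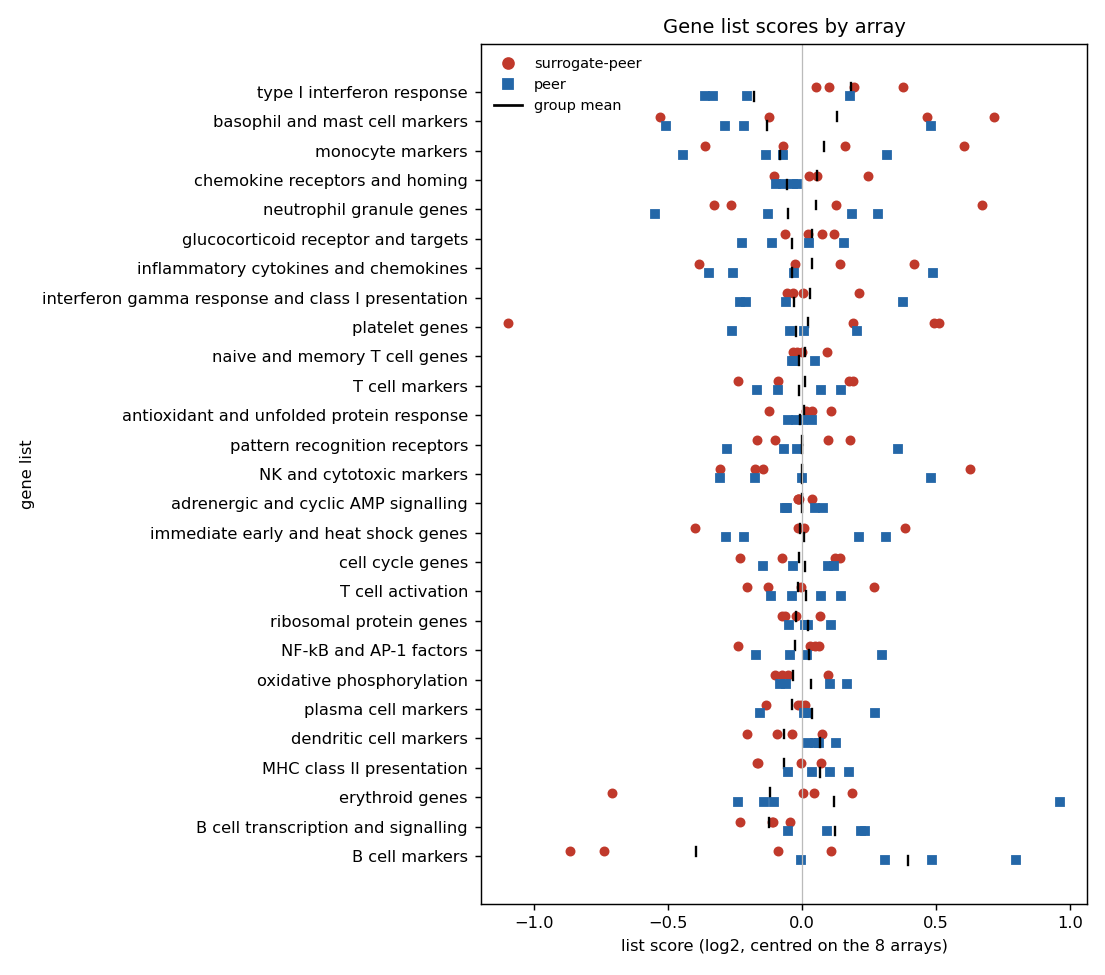
Scores of 27 gene lists (y axis) on each array, as the mean log2 value of the members minus their mean over the 8 arrays (x axis), for surrogate-peer (circles) and peer arrays (squares), with group means as black bars. The 2 groups overlap in every list; the B cell markers at the bottom have the widest distance of means, -0.40 against 0.40, and the platelet genes have 1 surrogate-peer array at -1.10.

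Animals of 1 rearing condition differed among themselves by a median SD of 0.17 over all tested probe sets in the surrogate-peer and 0.14 in the peer group; the SD was larger in the surrogate-peer group at 60.6% of probe sets. Correlations between arrays averaged 0.968 within surrogate-peer (6 pairs), 0.977 within peer (6 pairs) and 0.974 between the groups (16 pairs). The mean correlation between the groups lay between the means within them. The first principal component held 32% of the variance and set surrogate-peer array 2 (51.2) apart from the other 7 arrays (-24.8 to 16.7).

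At 9 probe sets, 2 of them with a gene name, the range was at least 4 log2 units in both groups. RERE, a nuclear corepressor gene, was at 10.65, 10.47, 4.14 and 4.11 on surrogate-peer arrays 1 to 4 and at 10.81, 4.07, 4.15 and 10.81 on peer arrays 1 to 4 at 1 probe set. The SE of the log2 fold change was 2.23 there. Its other 2 probe sets gave -0.11 ± 0.13 and 0.04 ± 0.12 (SE), too little spread for such a split. In 7 unnamed probe sets the 8 arrays fell into the same 2 sets, surrogate-peer arrays 1 and 2 and peer arrays 1 and 4 on 1 side and the other 4 on the opposite side. Each rearing group thus had 2 arrays on each side, and the mean difference between groups at RERE was -0.12. What divides the 2 sides was not tested. Among maternal animals, array 1 alone fell on the side of surrogate-peer arrays 1 and 2. These arrays are also the 2 with low B cell scores, whereas peer arrays 1 and 4, on the same side, had B cell scores of 0.31 and 0.48.

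MBLAC2 varied in another order, at 11.02 on surrogate-peer array 1, 13.27 and 11.57 on peer arrays 3 and 4 and 4.90 to 5.60 on the other 5; its log2 fold change was -2.32, and its 3 other probe sets gave -0.44 to 0.16. CD48, an adhesion molecule of lymphocytes, was at 9.73, 12.53, 9.14 and 12.91 in surrogate-peer and 13.01, 9.29, 12.74 and 12.66 in peer animals, while its 3 other probe sets gave log2 fold changes between -0.10 and -0.04. MAMU-A, a class I histocompatibility gene, ran from 9.90 to 13.59 and from 9.65 to 13.31, and its probe sets may read several class I genes. CLSPN, a replication checkpoint adaptor, ran from 6.65 to 10.99 and from 8.29 to 11.28, against 6.84 ± 0.23 (SD, n = 5) on maternal arrays. G0S2, an inhibitor of lipolysis, ran from 6.62 to 10.10 and from 6.70 to 10.40. For each of the 6 genes with the largest spread in both groups, the 95% interval of the log2 fold change included 0. Choosing genes by their spread makes these intervals wide, so this says little about the genes.

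**Figure D5:**
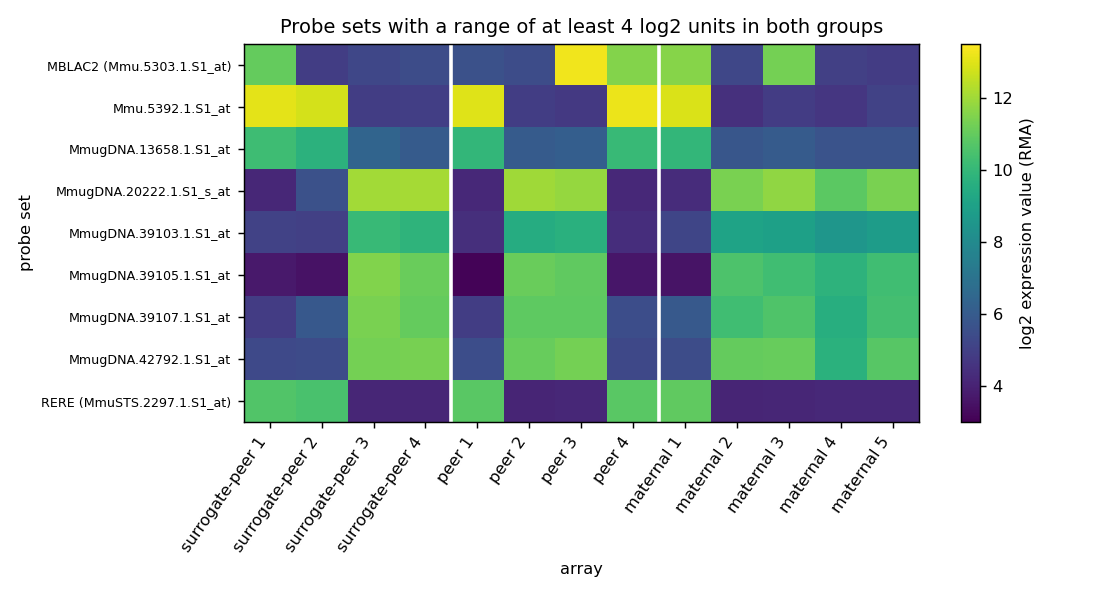
Log2 expression values (colour) of the 9 probe sets with a range of at least 4 log2 units in both groups (y axis) on all 13 arrays (x axis), with white lines between surrogate-peer, peer and maternal arrays. Apart from MBLAC2, the probe sets split the arrays in 1 way, with surrogate-peer arrays 1 and 2, peer arrays 1 and 4 and maternal array 1 on the same side.

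Technical measures differed between the groups in part. The BioB hybridisation control ran from 9.30 to 9.39 on the arrays of surrogate-peer animals and from 8.86 to 9.28 on those of peer animals, and BioC from 10.79 to 10.85 and from 10.32 to 10.78, both without overlap. The number in the sample title, whose meaning the labels do not state, was 9 to 32 and 35 to 47. For each of these 3 the exact permutation p, two-sided, was 0.0286, the smallest that 4 against 4 allows, and the adjusted p was 0.0857 over 9 measures. The log2 ratio of 3' to 5' signal of the actin and GAPDH controls was 1.37 ± 0.06 (SD, n = 4) and 1.54 ± 0.15 (SD, n = 4), with an exact permutation p of 0.0571. The hybridisation controls BioD and CreX were also higher on average on surrogate-peer arrays, by 0.20 and 0.11, with overlap. Their exact permutation p was 0.0571 as well, and the adjusted p of all 3 was 0.0857. The part of the control signals and of the 3' to 5' ratio in the differences above was not tested. With the title number as a covariate the count at an adjusted p under 0.05 was also 0, that at an unadjusted limma p under 0.05 was 699, and the median log2 fold change of the B cell markers was -1.43; since the numbers of the groups do not overlap, number and rearing cannot be fully told apart.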

How the data were processed

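The authors deposited log2 expression values per probe set of 13 Affymetrix rhesus arrays, 1 per animal, made by the RMA method (robust multi-array average) as the submitters' processing notes state. Its version and settings, and which arrays were normalized together, are not stated in those sources. RMA makes array distributions alike, so a shift of all genes would not be seen. Arrays have no read depth; their number, 4 and 4, limits the precision. Of 52865 probe sets, 158 controls were left out. Genes were named from the platform annotation, for probe sets with 1 symbol (58.2% of those tested, 9657 genes).

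Differences were fitted with limma 3.58.1 in R 4.3.3 (lmFit, eBayes) on the 8 arrays alone, with Benjamini-Hochberg adjustment over 26352 probe sets, two-sided, threshold 0.05. Named genes, with 1 probe set per gene and symbols starting with LOC left out, were the 12 smallest p and the 10 largest log2 fold changes in each direction among genes whose groups did not overlap (none passed the adjusted threshold, which the rule put first), list members at an unadjusted p under 0.05 (up to 6 per list, otherwise the 2 smallest p), and the 6 with the largest spread in both groups. Other probe sets are given where they differ in sign or by over 0.5. Lists of 571 genes took the brightest probe set of each gene. The members and lists were chosen with earlier results of these data known. The script was tested on simulated data. Arrays were numbered within a group in accession order, and the labels do not say more about the animals behind them, so p-values measure the spread between these arrays. Alternatives were all 13 arrays in 1 fit, 2 scalings, 3 filters, array weights, another variance prior, the title number as a covariate, and leaving out arrays.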

Additional observations from a re-analysis of the deposited data

Results flagged for a closer look

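In groups of 4 arrays, 16 of 310 groups held 1 array far from the other 3; chance gives about 1 in 20 groups, so this number says little by itself. Among named genes the lowest peer array was apart for GIPC2 (6.80), POLR1C (8.98) and CD48 (9.29). The lowest surrogate-peer array was apart for BCL7A (8.41), PTP4A3 (8.19), BLK (7.875) and KLRC1 (4.08). The highest surrogate-peer array was apart for MBLAC2 (11.02), MAMU-A (13.59) and PSMB8 (11.645). For BCL7A, PTP4A3 and BLK this was surrogate-peer array 2.

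Among list scores, surrogate-peer array 1 was low for NF-kB and AP-1 factors (-0.24) and surrogate-peer array 3 was high for adrenergic and cyclic AMP signalling (0.0366). Peer array 1 was high for erythroid genes (0.96) and for naive and memory T cell genes (0.0501). Among control signals, surrogate-peer array 2 was highest for BioB (9.39) and lowest for BioD (12.51) in its group.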

How the results depend on the processing

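The count of probe sets at an adjusted p under 0.05 was 0 in limma under each of the 18 alternatives, with a smallest adjusted p of 0.2274 without peer array 4. The count at an unadjusted p under 0.05, 761, was 483 with all 13 arrays in 1 fit, 1643 with array weights, 1766 without a filter and 346 with a stricter filter on dim probe sets, where the number tested changed too; leaving out single arrays gave 523 to 1327, with 1161 without peer array 3 and 1327 without surrogate-peer array 3. The count of probe sets whose groups did not overlap, 459, was 1143 without a filter, 186 with the stricter filter, 778 to 1577 with 1 array left out and 3180 without surrogate-peer arrays 1 and 2, since fewer arrays overlap less. The share of higher calls at an unadjusted p under 0.05 was 35.2%, 32.9% after median centring and 35% after quantile normalization; without surrogate-peer array 2 it was 55.9%.

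Of 378 alternative list medians 368 moved by less than 1 SD of the list score. That SD is the spread between arrays, so a median near 0 could change sign or grow within it. Monocyte markers went from 0.14 to -0.02 without surrogate-peer array 2, and platelet genes from 0.03 to 0.51 without surrogate-peer array 3. With the title number as a covariate the median was -1.43 for B cell markers, -0.0587 for MHC class II, 0.82 for NK and cytotoxic markers, -0.22 for dendritic cell markers, 0.0306 for ribosomal, 0.0582 for oxidative phosphorylation and 0.14 for antioxidant genes; the cause was not tested. B cell markers gave -0.43 without surrogate-peer arrays 1 and 2, an alternative chosen after seeing the data; the count at an unadjusted p under 0.05 was then 1000. Dendritic cell markers gave -0.12 over all probe sets and, leaving out single arrays, -0.1308 to 0.0485, the lowest without surrogate-peer array 4. Of 119 named values, a change of sign was scored only for genes chosen for groups without overlap or, as list members, for an unadjusted limma p under 0.05. Among these only RUFY3 reversed, to 0.0192 with the title number. Where groups do not overlap, leaving out arrays cannot reverse the sign, so for those genes that part was fixed in advance. The other named values were scored by the size of the shift alone. No paired analysis was possible because the labels give no replicate numbers shared by the groups.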
